A study of Danio rerio with 7 samples.

Results

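Neural crest and pigment lineage genes were examined in bulk RNA-seq of dissected zebrafish hindbrains at 24 hpf. Of 10 genes chosen by name (foxd3, sox10, crestin, tfap2a, mitfa, snai1b, snai2, dct, twist1a and twist1b), 9 had a single gene ID among the 32189 IDs of the table, and all 9 passed the filter on low counts. No ID carried the symbol mitfa, and 2 IDs carried the symbol MITF. The gene mitfa was therefore set apart, and both MITF IDs are described below. The Fgf20aHOM group held 3 libraries, each from an embryo with the dob mutation on both fgf20a alleles, whose strain and genotype are labelled Fgf20a HOM. The Cnt group held 4 libraries from wt embryos of the LondonAB strain. All embryos were at the same stage and kept at 28.5°C, and each library came from 1 embryo. The mutant embryos came from crosses of homozygous parents, so genotype, maternal genotype and line cannot be told apart, and no littermates were compared. The labels describe the tissue as hindbrain together with what surrounds it, whereas the methods state that dissections were screened by qPCR and only uncontaminated ones were sequenced. The Fgf20aHOM libraries are named F2, F3 and F4 after their columns.

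Neural crest cells form at the border of the neural plate, leave the dorsal neural tube and migrate through the embryo. They give rise to pigment cells, peripheral neurons and glia and, in the head, to cartilage and other mesenchyme of the pharyngeal arches. Specifier genes such as foxd3, sox10 and tfap2a act early, Snail family repressors act in the release of cells from the epithelium, Twist factors mark the mesenchymal branch, and Mitf proteins switch on the enzymes of melanin synthesis in melanophores. In zebrafish, hindbrain crest has mostly left the neural tube by this stage, and the first melanin appears at about the same time. The comparison asks which of these transcripts differed when Fgf20a, a growth factor secreted by hindbrain neurons, was mutated.

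The 7 libraries held 52900433 to 55915518 counts in Fgf20aHOM and 59800936 to 69801072 in Cnt. Values are normalised counts, scaled to a common library size with TMM factors (0.879 to 1.07). Calls required an adjusted p no higher than 0.01 in edgeR's quasi-likelihood test with Benjamini-Hochberg adjustment, a fold change of at least 2 and more than 30 normalised counts in every library of 1 group. These limits called 86 of 19589 genes (0.439%). The summed hindbrain markers, which include the progenitor gene sox3 and the neuronal gene elavl3, were at 2105 to 2316 CPM (counts scaled to library size) in Fgf20aHOM and 1610 to 2353 CPM in Cnt. The sum rested largely on sox3, at 1212 to 1529 CPM in Fgf20aHOM and 1001 to 1670 CPM in Cnt. Of its 6 genes, elavl3 (424 to 580 CPM in Fgf20aHOM, 266 to 400 CPM in Cnt) and sox2 were higher in every Fgf20aHOM library. The groups overlapped for sox3, hoxa2b, hoxb1b and neurog1.

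None of the 9 crest and pigment genes was called by edgeR, also with the limit on the adjusted p raised to 0.05. At an unadjusted p below 0.05, edgeR gave 3 of the 9 genes, all higher in Fgf20aHOM (foxd3, crestin and dct), against 8.44% of all genes tested higher and 7.21% lower. For the same 3 genes, all 3 Fgf20aHOM libraries lay above all 4 Cnt libraries, which held for 9.46% of all genes tested, and no member lay wholly below, against 8.03%. DESeq2, the tool that the study used, called foxd3 alone at the same limits, against 3.08% of all genes. The other 6 genes (sox10, tfap2a, snai1b, snai2, twist1a and twist1b) had overlapping groups. The median log2 fold change over the 9 genes was 0.31, beside -0.048 over all genes. A change in the number of crest cells in a dissection and a change in RNA per crest cell cannot be told apart in such libraries.

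**Figure D1:**
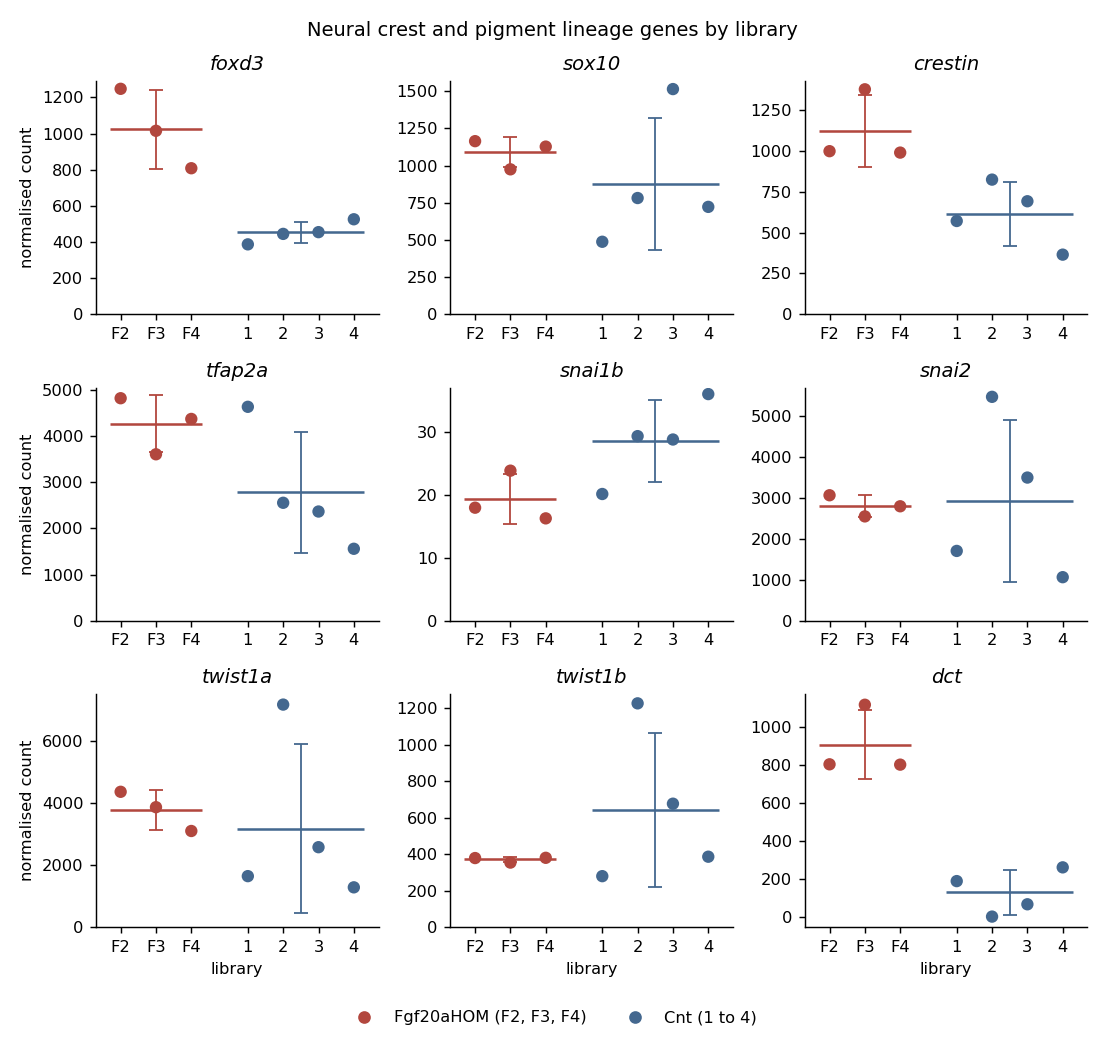
Normalised counts (vertical axes, linear) of the 9 genes in each library (horizontal axes), with Fgf20aHOM F2, F3 and F4 in red on the left and Cnt 1 to 4 in blue on the right. Lines are group means and bars the SD. Only foxd3, crestin and dct have all red points above all blue points, and the blue points of sox10, snai2, twist1a and twist1b are widely spread.

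Among the specifiers, foxd3 (ENSDARG00000021032) differed most steadily between the groups. It encodes a forkhead factor that keeps crest cells in a progenitor state and, in zebrafish, represses mitfa. Its normalised counts were 1248, 1015 and 808 in Fgf20aHOM F2, F3 and F4, against 386, 444, 454 and 525 in Cnt 1 to 4. The lowest Fgf20aHOM library was thus above the highest Cnt library, and Cnt varied little. The means were 1024 ± 220 in Fgf20aHOM (SD, n = 3) and 452 ± 57.0 in Cnt (SD, n = 4), a log2 fold change of 1.18 ± 0.28 (standard error). The edgeR p was 0.00193 and the adjusted p 0.0848, so the fold and count limits were met and the limit on the adjusted p was not. DESeq2 gave a log2 fold change of 1.17 with an adjusted p of 0.00251, and the alternatives spanned adjusted p-values of 0.00251 to 0.295.

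The transcript of crestin (ENSDARG00000105570), a retroelement-derived sequence expressed throughout migrating crest in zebrafish, was also higher in every Fgf20aHOM library. It had 999.7, 1379 and 991 normalised counts in Fgf20aHOM F2, F3 and F4, against 571, 825, 692 and 365 in Cnt 1 to 4. The gap between the groups was narrow, with 991 in Fgf20aHOM F4 and 825 in Cnt 2. Its log2 fold change was 0.87 ± 0.33 (standard error), with an edgeR p of 0.0236, an adjusted p of 0.235, and 0.104 to 0.489 over the alternatives. Because crestin has similar copies in the genome, the division of reads between them makes its counts less certain than those of the other genes.

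The SoxE factor sox10 (ENSDARG00000077467) is needed for pigment cells, neurons and glia of the crest and activates mitfa. It did not separate the groups. Its normalised counts were 1164, 974 and 1127 in Fgf20aHOM F2, F3 and F4, against 487, 781, 1515 and 722 in Cnt 1 to 4. The Fgf20aHOM libraries were close together, with Cnt 3 above and the other Cnt libraries below them. The means were 1089 ± 101 (SD, n = 3) in Fgf20aHOM and 876 ± 444 (SD, n = 4) in Cnt, and the log2 fold change of 0.31 ± 0.37 (standard error) was smaller than its error (edgeR adjusted p = 0.730).

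The otic vesicle also expresses sox10, and the summed otic level was highest in Cnt 3. The summed level of 11 otic genes was 206 to 249 CPM in Fgf20aHOM and 278 to 768 CPM in Cnt. In Cnt 3 the sum of 768 CPM rested largely on stm (336 CPM) and oc90 (183 CPM). Of the 11 genes, 4 were highest there (stm, otomp, tectb and oc90) and 7 were not (eya1, eya2, pax8, otx1, gbx2, atp1a1a.2 and cldna). The paper's otic vesicle marker eya2 had 2126, 1709, 1038 and 767 normalised counts in Cnt 1 to 4. For eya1 they were 3911, 3988, 2870 and 1455. The otolith matrix gene stm had 606, 1571 and 1398 normalised counts in Fgf20aHOM F2, F3 and F4, against 5033, 1703, 20061 and 6562 in Cnt 1 to 4. Of the 11 otic genes, edgeR gave 0 higher and 4 lower (stm, otomp, oc90 and cldna) at an unadjusted p below 0.05. The shares of all genes tested were 8.44% higher and 7.21% lower. The median log2 fold change of the otic genes was -0.26. DESeq2 called 1 of them, stm, as lower (log2 fold change -2.81, DESeq2 adjusted p = 0.000489), against 3.08% of all genes. The part of otic tissue in the sox10 values was not tested. The log2 fold change of sox10 was 0.71 without Cnt 3 (edgeR adjusted p = 0.304) and 0.11 without Cnt 1 (edgeR adjusted p = 0.921).

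The AP-2 factor tfap2a (ENSDARG00000059279), which acts in crest induction and melanophore development, had 4826, 3610 and 4376 normalised counts in Fgf20aHOM F2, F3 and F4, against 4640, 2557, 2368 and 1559 in Cnt 1 to 4. Cnt 1 alone reached the level of the Fgf20aHOM libraries. The log2 fold change was 0.62 ± 0.34 (standard error), with an edgeR adjusted p of 0.411, and without Cnt 1 it was 0.98 with an adjusted p of 0.183. Epidermis expresses tfap2a as well, and the paper reports it in noradrenergic neurons of the hindbrain at a later stage. The 9 epidermal genes summed to 2838 to 7776 CPM in Fgf20aHOM and 1087 to 20531 CPM in Cnt, where Cnt 1 and Cnt 4 (19663 CPM) were the highest. The sum rested largely on krt4, at 14306 CPM in Cnt 1 and 13656 CPM in Cnt 4. Cnt 1 and Cnt 4 were thus alike in this sum, while they were the highest and the lowest Cnt library in tfap2a. The basal epidermis factor tp63 had 4847, 2040 and 3658 normalised counts in Fgf20aHOM F2, F3 and F4, against 5033, 2348, 2510 and 811 in Cnt 1 to 4. Within Cnt it was highest in Cnt 1 and lowest in Cnt 4, as tfap2a was, whereas the other 8 epidermal genes were lowest in Cnt 2. The parts of epidermis and of hindbrain neurons in the tfap2a values were not tested. Over the epidermal list, edgeR gave 0 genes higher and 1 lower (krt91) at an unadjusted p below 0.05, and the median log2 fold change was -1.01. The shares of all genes tested were 8.44% higher and 7.21% lower. DESeq2 called krt91 alone, as lower (log2 fold change -2.49, DESeq2 adjusted p = 0.00146), against 3.08% of all genes.

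The Snail and Twist genes showed no difference that exceeded the spread between embryos. Snail factors repress cadherin genes when crest cells leave the epithelium, a role best known for snai2 from chick. The level of snai2 (ENSDARG00000040046) was 3065, 2548 and 2795 normalised counts in Fgf20aHOM F2, F3 and F4, against 1704, 5470, 3497 and 1062 in Cnt 1 to 4. All 3 Fgf20aHOM libraries lay inside the range of Cnt, whose highest library was 5.15 times its lowest. The log2 fold change was -0.066 ± 0.47 (standard error; edgeR adjusted p = 0.965), and its sign turned under limma-voom (0.16) and without Cnt 2 (0.42), Cnt 3 (0.028) or Fgf20aHOM F3 (0.041).

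The paralogue snai1b (ENSDARG00000046019) was too low for a call, with 17.9, 23.8 and 16.2 normalised counts in Fgf20aHOM F2, F3 and F4, against 20.1, 29.3, 28.8 and 36.0 in Cnt 1 to 4. Cnt 4 alone exceeded the count limit of 30, so snai1b could not have been called. The log2 fold change was -0.56 ± 0.92 (standard error), with an edgeR adjusted p of 0.810.

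Twist proteins are basic helix-loop-helix factors needed for the arch mesenchyme formed by cranial crest, and are also made by head mesoderm. twist1a (ENSDARG00000030402) had 4374, 3877 and 3108 normalised counts in Fgf20aHOM F2, F3 and F4, against 1650, 7192, 2585 and 1288 in Cnt 1 to 4. twist1b (ENSDARG00000076010) had 379, 354 and 380 in Fgf20aHOM F2, F3 and F4, against 280, 1226, 677 and 386 in Cnt 1 to 4. Cnt 2 was the highest of the 7 libraries for both, and also for snai2. The log2 fold changes were 0.25 ± 0.53 (standard error; edgeR adjusted p = 0.856) for twist1a and -0.79 ± 0.49 (standard error; edgeR adjusted p = 0.475) for twist1b. Without Cnt 2 the value was -0.27 for twist1b (edgeR adjusted p = 0.755) and 1.04 for twist1a (edgeR adjusted p = 0.143), whose groups then did not overlap. Without Cnt 4 it was 0.027 for twist1a, and without Cnt 1 it was 0.036 for twist1a and -1.04 for twist1b.

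Of 10 head mesoderm and cartilage genes, 5 were also highest in Cnt 2 (foxc1b, tbx1, pdgfra, foxf1 and meox1), and 5 were not (colec12, col9a2, col1a1a, col1a2 and col5a1). The forkhead gene foxc1b, expressed in head mesoderm and arches, had 1897, 1559 and 1048 normalised counts in Fgf20aHOM F2, F3 and F4, against 933, 3899, 686 and 623 in Cnt 1 to 4. Likewise tbx1, a regulator of pharyngeal mesoderm, had 3555, 2396 and 3107 in Fgf20aHOM F2, F3 and F4, against 1879, 8059, 2158 and 1242 in Cnt 1 to 4. The sum of all 10 head mesoderm and cartilage genes was 991 to 1455 CPM in Fgf20aHOM and 336 to 1204 CPM in Cnt, where Cnt 1 and not Cnt 2 was the highest. None of these 10 genes passed an unadjusted p of 0.05 by edgeR (median log2 fold change 0.28), and the part of head mesoderm in the Twist and Snail values was not tested.

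Most of these genes had a wider spread between wild-type than between mutant embryos. The coefficient of variation was larger in Cnt than in Fgf20aHOM for 8 of the 9 genes, and the exception was foxd3 (21.5% in Fgf20aHOM and 12.6% in Cnt). It was 3.98% in Fgf20aHOM and 66.0% in Cnt for twist1b, and 9.23% in Fgf20aHOM and 67.5% in Cnt for snai2. For snai1b the values were close, at 20.6% in Fgf20aHOM and 22.8% in Cnt. Over all genes tested, the median was 28.9% in Fgf20aHOM and 37.2% in Cnt, so it was larger in Cnt there as well. The share of all genes with a larger coefficient of variation in Cnt was not counted. Cnt 2 was the highest Cnt library for 4 of the 9 genes (crestin, snai2, twist1a and twist1b) and the lowest for dct. Cnt 4 and Cnt 1 were the lowest for 4 genes each. Summed over the 9 genes, the level was 241 to 283 CPM in Fgf20aHOM and 104 to 310 CPM in Cnt, with the highest value in Cnt 2 and the lowest in Cnt 4.

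**Figure D2:**
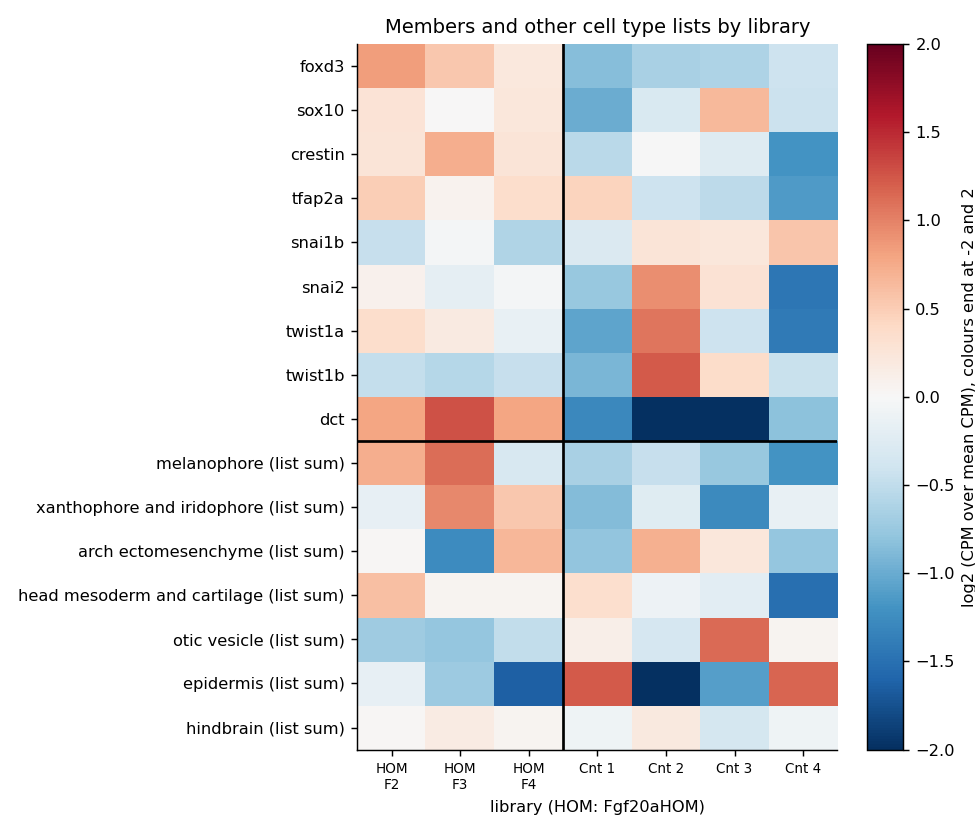
Each cell gives the log2 of a library's CPM over the mean CPM of the 7 libraries, for the 9 genes (above the line) and for summed lists of marker genes (below it), with the Fgf20aHOM libraries (HOM F2 to F4) on the left and Cnt 1 to 4 on the right. The twist1a, twist1b and snai2 rows are darkest red in Cnt 2, dct is blue in all 4 Cnt libraries, and the otic row is reddest in Cnt 3. Colours stop at -2 and 2.

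The melanin synthesis enzyme dct (ENSDARG00000006008), dopachrome tautomerase, had the largest fold change of the 9 genes. It had 805, 1120 and 804 normalised counts in Fgf20aHOM F2, F3 and F4, against 189, 1.83, 66.8 and 262 in Cnt 1 to 4. Every Fgf20aHOM library was above every Cnt library, and Cnt 2, with 2 reads, was almost without dct. The means were 909.5 ± 182 in Fgf20aHOM (SD, n = 3) and 130 ± 117 in Cnt (SD, n = 4), a fitted fold change of 7.0. On the log2 scale this was 2.81 ± 1.02 (standard error), with an edgeR p of 0.0227 and an adjusted p of 0.233. By DESeq2 the adjusted p was 0.0342, also above the limit of 0.01. Without Cnt 2 the log2 fold change was 2.40 and the edgeR adjusted p 0.0693.

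The symbol MITF, for the transcription factor that directs melanophore fate and activates dct in zebrafish and mammals, was given to 2 IDs that the names table does not resolve into mitfa and mitfb. ENSDARG00000037833 had 0 counts in all 7 libraries, which allows up to 3 counts in each. ENSDARG00000003732 had 692, 414 and 182 normalised counts in Fgf20aHOM F2, F3 and F4, against 123, 172, 239 and 13.6 in Cnt 1 to 4. The groups overlapped through Fgf20aHOM F4, which was below Cnt 3. The log2 fold change was 1.65 ± 0.78 (standard error), with an edgeR adjusted p of 0.342 and 0.198 to 0.774 over the alternatives.

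Other melanophore genes had positive fold changes as well. Of 14 genes listed, 9 had a single ID, and all 9 had a positive log2 fold change (median 1.07), whereas 47.3% of all genes tested did. The direction was uncertain for pmelb and oca2, which had 0 normalised counts in some Cnt libraries. Their log2 fold changes were 0.67 ± 1.78 and 1.07 ± 1.43 (standard errors), and that of pmelb fell to -0.54 over the alternatives. edgeR called 0 of the 9 genes and gave 3 as higher at an unadjusted p below 0.05, against 8.44% of all genes tested. These were the melanosome matrix gene pmela, tyrosinase (tyr) and the transporter slc45a2. The groups overlapped for slc45a2, with 412, 1443 and 405 normalised counts in Fgf20aHOM F2, F3 and F4, against 108, 111, 180 and 444 in Cnt 1 to 4. DESeq2 called pmela alone, against 3.08% of all genes. pmela had 2036, 1968 and 1030 normalised counts in Fgf20aHOM F2, F3 and F4, against 688, 454, 410 and 100.2 in Cnt 1 to 4. As for dct, no Cnt library reached the Fgf20aHOM libraries. Its log2 fold change was 2.02 ± 0.54 (standard error), with an adjusted p of 0.105 by edgeR and 0.00638 by DESeq2. For tyr, which makes the precursor that dct converts, the counts were 143, 169 and 58.5 in Fgf20aHOM F2, F3 and F4, against 10.1, 11.9, 23.2 and 0 in Cnt 1 to 4 (log2 fold change 3.43 ± 1.15, standard error; edgeR adjusted p = 0.191). The ion exchanger slc24a5 also had groups that did not overlap, with 46.8 to 69.2 in Fgf20aHOM and 0 to 18.1 in Cnt. In all, 3 of the 9 genes lay wholly higher in Fgf20aHOM, against 9.46% of all genes tested. At the other end of the list, tfec, a Mitf relative active in crest and pigment progenitors, had 118 ± 50.2 in Fgf20aHOM (SD, n = 3) and 102 ± 44.7 in Cnt (SD, n = 4), and its sign turned under limma-voom. The 9 genes summed to 39.8 to 108 CPM in Fgf20aHOM and 21.9 to 36.3 CPM in Cnt.

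The retinal pigment epithelium also makes dct, pmela and tyr. Among 7 matched eye genes, the retinal factors rx1 and rx2 and the lens gene cryaa had 0 counts in all 7 libraries. Of the 3 eye genes that passed the filter, none passed an unadjusted p of 0.05 by edgeR (median log2 fold change 0.67).

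**Figure D3:**
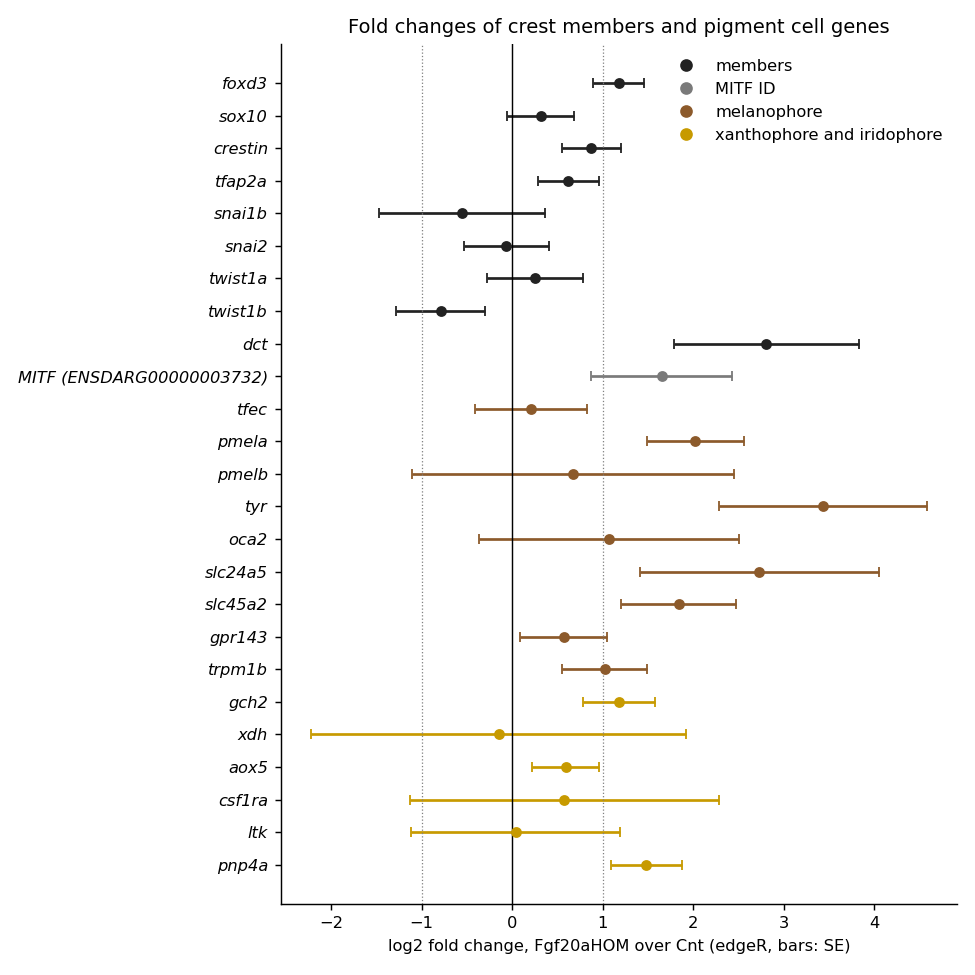
Log2 fold changes of Fgf20aHOM over Cnt by edgeR (points) with standard errors (bars) for the 9 genes, 1 MITF ID and the tested genes of the melanophore and of the xanthophore and iridophore lists. Dotted lines mark a fold change of 2 in either direction. All 9 melanophore genes lie to the right of 0, but the bars of tfec, pmelb and oca2 cross it. The bars of sox10, snai1b, snai2 and twist1a cross it too, as do those of xdh, csf1ra and ltk.

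Genes of the yellow xanthophores and the silvery iridophores gave a mixed picture. Of 7 listed, 6 were matched and tested, with 5 positive and 1 negative log2 fold change (median 0.58). The negative value, of xdh, was -0.15 ± 2.07 (standard error), with 0 to 36.3 normalised counts in Fgf20aHOM and 0 to 73.4 in Cnt. Counts were also low for csf1ra (0.58 ± 1.71, standard error) and ltk (0.037 ± 1.15, standard error). None of the 6 was called by edgeR, and 2 passed an unadjusted p of 0.05 as higher in Fgf20aHOM, against 8.44% of all genes tested. They were gch2, which starts pteridine synthesis in xanthophores, and pnp4a, which acts in the purine synthesis of iridophores. pnp4a had 427, 850 and 505 normalised counts in Fgf20aHOM F2, F3 and F4, against 156, 296, 197 and 201 in Cnt 1 to 4. The groups were apart, with a log2 fold change of 1.48 ± 0.39 (standard error) and an adjusted p of 0.104 by edgeR and 0.00726 by DESeq2, which called it. gch2 had 3995, 8812 and 7580 in Fgf20aHOM F2, F3 and F4, against 2185, 3733, 1546 and 4540 in Cnt 1 to 4, so that Cnt 4 overlapped (edgeR adjusted p = 0.191). The xanthophore oxidase aox5 had a log2 fold change of 0.59 ± 0.37 (standard error; edgeR adjusted p = 0.477), and of 0.037 without Fgf20aHOM F3. The list summed to 91.9 to 201 CPM in Fgf20aHOM and 42.6 to 93.7 CPM in Cnt.

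Further crest specification genes were divided. Of 21 listed, 11 were matched and tested, 9 with a positive and 2 with a negative log2 fold change (median 0.46). edgeR called 0, and at an unadjusted p below 0.05 gave tfap2b, tfap2e and the endothelin receptor ednrab as higher and inka1a as lower in Fgf20aHOM. The shares of all genes tested at that p were 8.44% higher and 7.21% lower. The AP-2 gene tfap2e, which acts with tfap2a in melanophores, had 334, 412 and 222 normalised counts in Fgf20aHOM F2, F3 and F4, against 136, 130, 55.7 and 55.4 in Cnt 1 to 4. Its groups did not overlap, and the log2 fold change was 1.77 ± 0.52 (standard error; edgeR adjusted p = 0.142). In the other direction, inka1a, a gene of cranial crest, had 3371 ± 729 in Fgf20aHOM (SD, n = 3) and 5043 ± 654 in Cnt (SD, n = 4), with groups that did not overlap and a log2 fold change of -0.58 ± 0.23 (standard error; edgeR adjusted p = 0.249). The list summed to 567 to 653 CPM in Fgf20aHOM and 446 to 648 CPM in Cnt.

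The 6 tested genes of the arch ectomesenchyme, the branch that Twist factors mark, had 3 positive and 3 negative log2 fold changes (median -0.017), and none passed an unadjusted p of 0.05 by edgeR. The extremes were twist3 at 0.58 ± 0.58 (standard error; edgeR adjusted p = 0.674) and dlx4b at -0.53 ± 0.50 (standard error; edgeR adjusted p = 0.653). The dlx4b value was -0.16 without Fgf20aHOM F3 and -1.29 without Fgf20aHOM F4. Of 7 tested genes that act in crest migration, edgeR called 0 (median log2 fold change -0.14). At an unadjusted p below 0.05 by edgeR, ephb4a and cdh6 were higher and sparc lower, beside 8.44% and 7.21% of all genes tested. The Eph receptor gene ephb4a had 4310 ± 810 normalised counts in Fgf20aHOM (SD, n = 3) and 1993 ± 810 in Cnt (SD, n = 4), a log2 fold change of 1.11 ± 0.32 (standard error), with an adjusted p of 0.136 by edgeR and 0.0327 by DESeq2. The matrix gene sparc had 31739 ± 5770 in Fgf20aHOM (SD, n = 3) and 44840 ± 8095 in Cnt (SD, n = 4), a log2 fold change of -0.50 ± 0.22 (standard error; edgeR adjusted p = 0.316). Over the crest and pigment lists together, with the 9 genes left out, 46 of 80 listed genes were tested. Of these, 32 had a positive and 14 a negative log2 fold change (median 0.48), whereas 47.3% of all genes tested were positive (median -0.048). edgeR called 0 of the 46, also at an adjusted p of 0.05. At an unadjusted p below 0.05 edgeR gave 10 higher and 2 lower, against 8.44% and 7.21% of all genes tested. DESeq2 called pmela and pnp4a, against 3.08% of all genes.

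Because dissections can differ in how much crest tissue they carry, the level of each gene was also taken relative to sox10 in the same library. The choice of this ratio followed sight of the data. For 8 ratios an exact permutation test (two-sided) was run, whose smallest possible p was 0.0571. The ratio of dct to sox10 was 0.692, 1.15 and 0.713 in Fgf20aHOM F2, F3 and F4, against 0.388, 0.00234, 0.0441 and 0.363 in Cnt 1 to 4. As with the counts themselves, the groups did not overlap (exact permutation p = 0.0571, adjusted p = 0.229). The ratio of twist1b to sox10 was 0.325, 0.363 and 0.337 in Fgf20aHOM F2, F3 and F4, against 0.574, 1.57, 0.447 and 0.535 in Cnt 1 to 4. Here the Fgf20aHOM libraries were all below Cnt (exact permutation p = 0.0571, adjusted p = 0.229). For foxd3 the ratios were 1.07, 1.04 and 0.717 in Fgf20aHOM F2, F3 and F4, against 0.793, 0.569, 0.300 and 0.728 in Cnt 1 to 4, and the groups overlapped (exact permutation p = 0.171, adjusted p = 0.343). The ratio of crestin to sox10 overlapped too, at 1.05 ± 0.316 in Fgf20aHOM (SD, n = 3) and 0.798 ± 0.369 in Cnt (SD, n = 4; exact permutation p = 0.343, adjusted p = 0.549). For tfap2a, snai1b, snai2 and twist1a the groups overlapped as well, with exact permutation p-values of 0.114 to 0.971. These ratios share the sox10 values, including the high level of Cnt 3. The share of all genes whose ratio to sox10 did not overlap between the groups was not counted. Whether the ratios of dct and twist1b are unusual in this can therefore not be said. In Cnt the coefficient of variation was 50.7% for sox10 and 12.6% for foxd3. Whether sox10, which the otic vesicle also expresses, measures the crest content of a dissection was not tested.

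**Figure D4:**
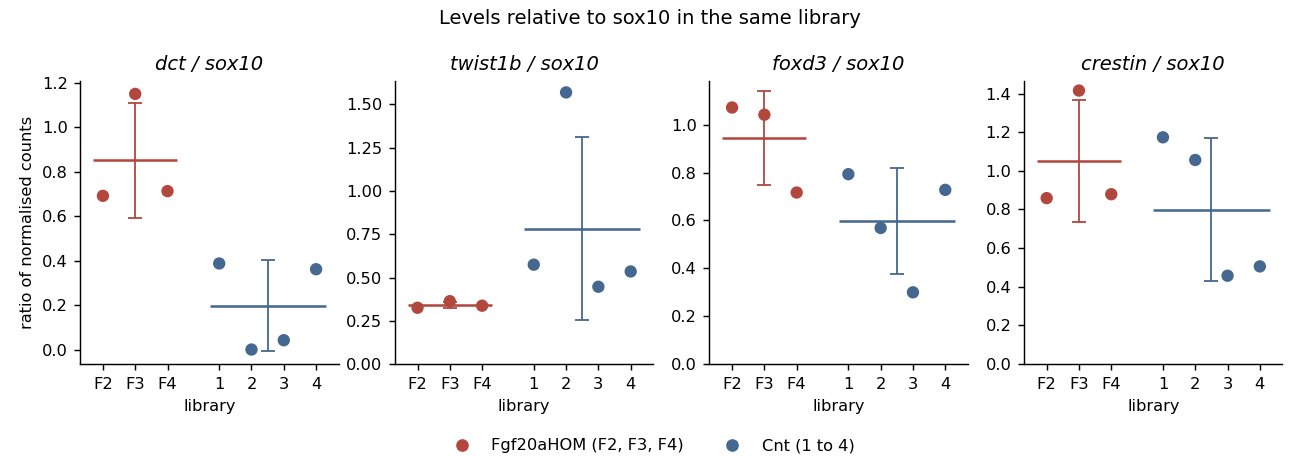
Ratios of normalised counts of dct, twist1b, foxd3 and crestin over sox10 (vertical axes) by library (horizontal axes), with Fgf20aHOM F2, F3 and F4 in red on the left and Cnt 1 to 4 in blue on the right, group means as lines and SD as bars. The dct ratios are higher in all Fgf20aHOM libraries than in Cnt, the twist1b ratios are lower in all, and those of foxd3 and crestin overlap.

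Across the 7 libraries, log2 CPM of the other members had a Pearson's r with that of sox10 from -0.12 for snai1b to 0.48 for snai2. Most of them changed when the lowest and the highest sox10 library, Cnt 1 and Cnt 3, were left out. Over the other 5 libraries, r was 0.963 for tfap2a, 0.868 for foxd3, 0.718 for crestin, 0.696 for dct, 0.293 for twist1a, 0.287 for snai2, -0.48 for twist1b and -0.98 for snai1b. In these 5 libraries sox10 itself separated the groups, with 974 to 1164 normalised counts in Fgf20aHOM against 781 in Cnt 2 and 722 in Cnt 4. The r values over 5 libraries thus include the difference between the groups and do not measure likeness within a group. The genes outside the list most like sox10, among 15708 with a mean CPM of at least 1, were IGDCC3 (r = 0.978), zgc:110782 (r = 0.966), znf526 (r = 0.964), ATL1 (r = 0.964) and si:dkeyp-77h1.4 (r = 0.962). IGDCC3 (ENSDARG00000075158) had 958, 628 and 776.5 normalised counts in Fgf20aHOM F2, F3 and F4, against 338, 539, 1094 and 434 in Cnt 1 to 4. Like sox10 it was highest in Cnt 3 and lowest in Cnt 1. With Cnt 1 and Cnt 3 left out, r was 0.964 for IGDCC3 and 0.875 for zgc:110782. The points share libraries, and such values are the highest found among many genes.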

How the data were processed

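Total RNA from 7 dissected hindbrains was amplified by the authors as cDNA with the NuGEN Ovation system, and Nextera XT libraries were sequenced from both ends. RSEM (version 1.2.31) called STAR (version 2.5.1b) for the alignment, per the submitters' processing notes, to GRCz10 with Ensembl transcripts. The authors deposited RSEM expected counts per gene, as rounded integers that are not depth-scaled. Reads shared by similar genes are divided by RSEM, and neither strand use nor molecular identifiers were stated, so counts of genes with similar copies or overlapping neighbours are less certain.

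Columns were assigned to groups by name. The Fgf20aHOM columns carry numbers other than those of the sample titles, so only their group is known. Each library was 1 embryo, and p-values measure the spread between these libraries. Members were matched to IDs by symbol, and 26350 of 32189 IDs had a symbol. No gene positions or sequences are given.

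Expected counts entered edgeR's quasi-likelihood F test (edgeR version 4.0.16, R version 4.3.3; TMM, filterByExpr, robust, genotype as the only term), two-sided, with Benjamini-Hochberg adjustment over 19589 genes. Call limits were those of the study, which applied them to results of DESeq2, here one of the alternatives. Normalised counts are counts over TMM-scaled library size, multiplied by the mean of that size (59678748). Each standard error is the log2 fold change divided by the root of F. CPM were used for sums and log2(CPM + 0.5) for correlations. Counts of 0 allow up to 3 counts in a library, counting error only. The 7 libraries held 52900433 to 69801072 counts.

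DESeq2 version 1.42.0, limma-voom (limma version 3.58.1), other scalings, other filters and leaving out each library were the alternatives, and the adjusted p limit of 0.05 was added after the data had been seen. The members and the marker lists were chosen with earlier results of these data known. The text names all members, the highest and the lowest log2 fold change of each crest and pigment list among genes with a mean CPM of at least 1, any listed gene with an edgeR adjusted p of at most 0.05, and the 5 genes with the highest Pearson r with sox10. Genes that spell out a count of 5 or fewer, genes named for low counts, the ratios to sox10 and the marker genes of other tissues were named after their values had been seen. An eye marker and the sum of the eye list are not reported here.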

Additional observations from a re-analysis of the deposited data

Results flagged for a closer look

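In the ratio of twist1b to sox10, the 4 Cnt libraries held 1 that stood far from the others. Cnt 2 was at 1.57, against 0.574, 0.447 and 0.535 in Cnt 1, 3 and 4, and the gap to the nearest library took 0.886 of the whole range of the group, above Dixon's critical value for 4 values. It was found among 19 measures, of which chance would pick about 0.95. The Fgf20aHOM libraries were at 0.325, 0.363 and 0.337.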

How the results depend on the processing

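Over 13 alternatives the 9 genes gave 115 values of the log2 fold change, of which 110 kept direction and call, 4 turned sign (all snai2) and 1 was newly called (foxd3 by DESeq2). DESeq2 called 1 of the 9 genes and 2 of the other crest and pigment genes (pmela and pnp4a), where edgeR called 0 of each. DESeq2 also called stm of the otic list and krt91 of the epidermal list, both lower in Fgf20aHOM. The sign turned under limma-voom for snai2 (0.16) and tfec (-0.029). Leaving out 1 library at a time gave -0.31 to 0.42 for snai2, -0.19 to 0.47 for tfec and -0.67 to 0.041 for mpz. The number of the 9 genes whose groups did not overlap was 3 to 6 when 1 library was left out, against 21.5% to 27% of all genes tested, higher and lower together. It was 6 without Cnt 1 (22.2% of all genes), where tfap2a was added as higher and snai1b and twist1b as lower. The cause was not tested. Over all genes, 634 were called by DESeq2 and 15 to 69 with 1 library left out, against 86. With at least 1 CPM asked of all libraries, dct and snai1b were not tested. No paired analysis was possible because no littermates were compared, and because sample titles and columns number the Fgf20aHOM libraries differently. The planned count of promoter motifs was not run, since no promoter sequences were used here. With 3 and 4 libraries, differences of the size of those in sox10 or twist1a were within the spread between embryos.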

Other observations

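The genes listed for crest-derived glia and peripheral neurons showed no common direction. The list is not specific to crest derivatives. neurog1 was also on the hindbrain list and hand2 on the arch list, and the paper names isl1 and phox2a for hindbrain motor neurons. Of 11 listed genes, 9 were matched and tested, 5 with a positive and 4 with a negative log2 fold change (median 0.0032). The list includes foxd3, which alone passed an unadjusted p of 0.05 by edgeR, against 8.44% of all genes tested higher. The receptor gene ret, needed for the enteric nervous system, had 1543, 371 and 1608 normalised counts in Fgf20aHOM F2, F3 and F4, against 683, 712, 178 and 100.2 in Cnt 1 to 4, and the groups overlapped (log2 fold change 1.49 ± 0.72, standard error; edgeR adjusted p = 0.358). The myelin gene mpz had 1533 ± 530.4 in Fgf20aHOM (SD, n = 3) and 2055 ± 1152 in Cnt (SD, n = 4), with a log2 fold change of -0.42 ± 0.42 (standard error; edgeR adjusted p = 0.666). The arch gene hand2 was lowest in Fgf20aHOM F3 at 439, beside 2260 and 2670 in Fgf20aHOM F2 and F4, against 595, 3173, 2562 and 811 in Cnt 1 to 4.

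The symbol TYRP1, of a further melanin enzyme, was given to 2 IDs. ENSDARG00000056151 had 1451, 1377 and 653 normalised counts in Fgf20aHOM F2, F3 and F4, against 814, 114, 143 and 313 in Cnt 1 to 4. Its groups overlapped through Cnt 1 (log2 fold change 1.75 ± 0.64, standard error; edgeR adjusted p = 0.229). ENSDARG00000029204 had 90.7, 145 and 170.0 in Fgf20aHOM F2, F3 and F4, against 0, 23.8, 39.9 and 141 in Cnt 1 to 4 (edgeR adjusted p = 0.618). Among other tissues, 3 muscle genes were tested and none passed an unadjusted p of 0.05 by edgeR (median log2 fold change 1.37). Of 6 hindbrain genes, 2 (elavl3 and sox2) passed it as higher in Fgf20aHOM (median 0.36), against 8.44% of all genes tested. Of the forebrain and midbrain genes, 0 of 2 did (median -0.77).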
